A study of Mus musculus with 8 samples.

Results

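The genes described here are the interferon response genes, as read in haematopoietic stem cells (HSCs), from which all blood lineages descend. They were chosen by symbol, as 39 genes of interferon signalling and its antiviral products that the deposited expression table holds, among 11854 named entries. Symbols absent from the table were left out beforehand, so the presence of all 39 is not a result. The study compared 4 polyadenylated RNA libraries of HSCs sorted from the bone marrow of wild type mice with 4 of Nupr1-/- mice. The labels do not say that each library came from a separate mouse, so p-values measure the spread between these libraries, which may be technical. All mice had a C57BL/6 background, and the labels name no treatment. Age, sex, the part of Nupr1 that was deleted and the cell surface gate are not given in the sources used here. Nupr1 encodes a small nuclear protein induced by stress, and the series title links it to HSC quiescence and p53.

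Interferons are secreted cytokines with separate receptors for type I (Ifnar1 with Ifnar2) and type II (Ifngr1 with Ifngr2). Receptor-bound Janus kinases phosphorylate STAT proteins, which enter the nucleus, type I signals mainly as a complex with STAT2 and IRF9 that binds the interferon-stimulated response element (ISRE), type II signals as STAT dimers that bind the gamma-activated site (GAS). In HSCs type I interferon is known to drive exit from quiescence, and stem cells are known to keep part of the antiviral programme switched on without infection.

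The letters of these elements are frequent in the promoters of the listed genes, and 4 promoters with an ISRE match are shown. They were picked by the values described further on. Their genes had an unadjusted limma p under 0.05, groups that did not overlap, or wild type library 2 at 2 or more times the mean of the other 3. Promoter windows of 300 bases, from 250 before to 50 after the annotated start, were taken from RefSeq on build GRCm38.p6, which held entries for 33 of the 39 genes. The ISRE was searched as 2 copies of GAAA with any 2 bases between them, and GAS as TTCNNNGAA, on both strands, with overlapping matches kept. At least 1 ISRE match was present in 15 of the 33 genes (45.5%) and in 3.99% of all 27025 genes with a window. A GAS match was present in 12 of the 33 (36.4%) and in 9.55% of all genes. These matches are letters in a window and not measured binding. The ISRE letters are in capitals below, each sequence reads 5′ to 3′ on the strand of the gene, and Bst2 holds 2 overlapping matches.
Gbp7, chr3:142530086-142530385, plus strand: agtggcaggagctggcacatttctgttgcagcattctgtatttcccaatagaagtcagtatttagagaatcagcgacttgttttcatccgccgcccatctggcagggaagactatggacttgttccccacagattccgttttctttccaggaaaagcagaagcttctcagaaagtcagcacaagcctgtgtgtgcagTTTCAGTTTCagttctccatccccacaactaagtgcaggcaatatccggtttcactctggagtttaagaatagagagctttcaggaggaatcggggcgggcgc
Ifit1, chr19:34640639-34640938, plus strand: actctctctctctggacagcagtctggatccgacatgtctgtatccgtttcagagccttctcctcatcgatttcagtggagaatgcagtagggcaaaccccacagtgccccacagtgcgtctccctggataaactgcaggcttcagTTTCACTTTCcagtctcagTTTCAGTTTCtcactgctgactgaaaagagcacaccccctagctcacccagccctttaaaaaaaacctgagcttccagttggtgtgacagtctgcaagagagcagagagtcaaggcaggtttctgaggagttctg
Bst2, chr8:71537423-71537722, minus strand: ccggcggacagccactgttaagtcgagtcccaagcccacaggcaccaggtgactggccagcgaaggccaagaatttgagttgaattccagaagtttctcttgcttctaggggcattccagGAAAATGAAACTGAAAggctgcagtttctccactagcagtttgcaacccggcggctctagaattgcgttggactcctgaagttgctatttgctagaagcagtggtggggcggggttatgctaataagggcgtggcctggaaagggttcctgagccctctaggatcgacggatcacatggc
Irf2, chr8:46739495-46739794, plus strand: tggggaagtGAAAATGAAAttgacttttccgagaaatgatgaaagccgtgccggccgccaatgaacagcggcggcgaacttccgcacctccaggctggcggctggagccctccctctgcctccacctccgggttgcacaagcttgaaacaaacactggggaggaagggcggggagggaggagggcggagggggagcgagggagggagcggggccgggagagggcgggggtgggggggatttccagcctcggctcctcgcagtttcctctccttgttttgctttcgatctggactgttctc
The match of Gbp7 starts at position -53 from the annotated start and those of Ifit1 at -104 and -85. The match of Irf2 lies far from the start, at -241. Those of Bst2 start at -130 and -124. Each of the 4 but Ifit1 also holds GAS letters, at -106 and -87 in Gbp7, -136 in Bst2 and -224 in Irf2. The window of Adar, without an ISRE match, starts at 89730468 on chromosome 3, inside the annotated gene, whose first base is 89715022. Ifi27, Usp18, Parp14, Mx1, Rtp4 and Parp9 had no window.

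Values are normalised reads, each a read count over the size factor of its library, given in the order of libraries 1 to 4 of a group; libraries held 2296101 to 4769401 reads. Nupr1 itself did not separate the groups: it was 285, 134, 245 and 318 in wild type and 179, 173, 201 and 119 in libraries labelled knockout (log2 difference -0.50 ± 0.34, SE; limma adjusted p = 0.433). The targeted gene therefore does not check the labels, and each difference is between libraries as labelled. All 13 listed HSC genes (Procr, Mecom and Hlf among them) were above 0 in all 8 libraries. Cd48 and Flt3, which mark progenitors rather than HSCs, were highest in wild type libraries 3 and 4: Cd48 at 114 and 105 against at most 13.0 in the other 6, and Flt3 at 97.7 and 134.5 against at most 48.6. Of 10 markers for each other cell type, 2 of monocytes and macrophages, 1 of neutrophils, 4 of dendritic cells, 4 of B cells, 3 of T and NK cells, 7 of erythroid cells and 8 of megakaryocytes and platelets were among the entries; the rest, Csf1r among them, were not analysed here. Of the 4 B cell markers, 2 were above 0 in all 8 libraries. The sum of all 4 was 3063 and 8710 in wild type libraries 3 and 4 and 329 to 761 in the other 6. Of that sum, Ighm alone was 1387 and 6740 in wild type libraries 3 and 4, and at most 166 in the other 6. Prtn3, the neutrophil marker held, was 2418 and 2908 in wild type libraries 3 and 4 and 847 to 1445 in the other 6. The monocyte and macrophage sum did not split this way, at 3166 and 2184 there and up to 2614 in libraries labelled knockout. The summed megakaryocyte and platelet markers were 889 to 1288 in wild type and 2061 to 2602 in libraries labelled knockout, with 7 of 8 above 0 in all libraries and 4 of 8 past the threshold, all higher. The summed erythroid markers were 2638 to 4877 in wild type and 4289 to 6269 in libraries labelled knockout. Most of each sum was Car2, at 2066 to 4445 in wild type and 3852 to 5727 in libraries labelled knockout. Of 5 tested, 1 passed, Klf1, a transcription factor of red cell precursors. Among those that did not pass, Car2 (log2 0.68) and Epor (1.83) lay above 0 and Tfrc (-0.79) and Hbb-bt (-0.16) below. Klf1 was 0 to 2.99 in wild type and 24.9 to 85.7 in libraries labelled knockout (log2 4.39, limma adjusted p = 0.0341). The rank correlation, across genes, between the GC content of a transcript and the deviation of a library from the gene mean was -0.302 to -0.138 in wild type and 0.15 to 0.302 in libraries labelled knockout. In bulk RNA, fewer cells of a type and less RNA per cell cannot be told apart.

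Interferon response genes were read in these bulk HSC libraries, at levels from the lower part to the very top of the tested genes. All 39 passed the filter on low values (at least 10 normalised reads in at least 4 libraries). For 16 of the 39, exons share 24 to 1476 bases with a neighbour, and reads there cannot be told apart. To compare genes, the wild type mean was divided by exon length in kilobases (kb). Membrane proteins of the IFITM family, which block the fusion of viruses with cell membranes, stood at the top. Ifitm1 had 5528 ± 1995 normalised reads per kb (SD, n = 4), Ifitm3 5299 ± 185 and Ifitm2 1148 ± 81.0, levels higher than those of 99.8%, 99.7% and 99.1% of tested genes. Ifitm1 and Ifitm3 did not differ beyond their spread. Lgals3bp, a secreted glycoprotein, followed at 471 ± 90.5 per kb and Ifi27, a mitochondrial protein induced by interferon, at 194 ± 35.4. The factor Irf1 had 168 ± 35.1 per kb. At the other end stood Irf2 (12.4 ± 4.33 per kb), Usp18 (16.0 ± 15.1), Ifngr2 (16.1 ± 6.21) and Eif2ak2 (16.6 ± 9.01), above 24.9%, 32%, 32.1% and 32.9% of tested genes. Isg15, the ubiquitin-like protein that is among the most strongly induced genes of an acute interferon response, had only 20.0 ± 10.4 per kb in wild type and 23.4 ± 9.16 in libraries labelled knockout. The spans of neighbouring genes in this order mostly overlapped below Ifi27.

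**Figure D1:**
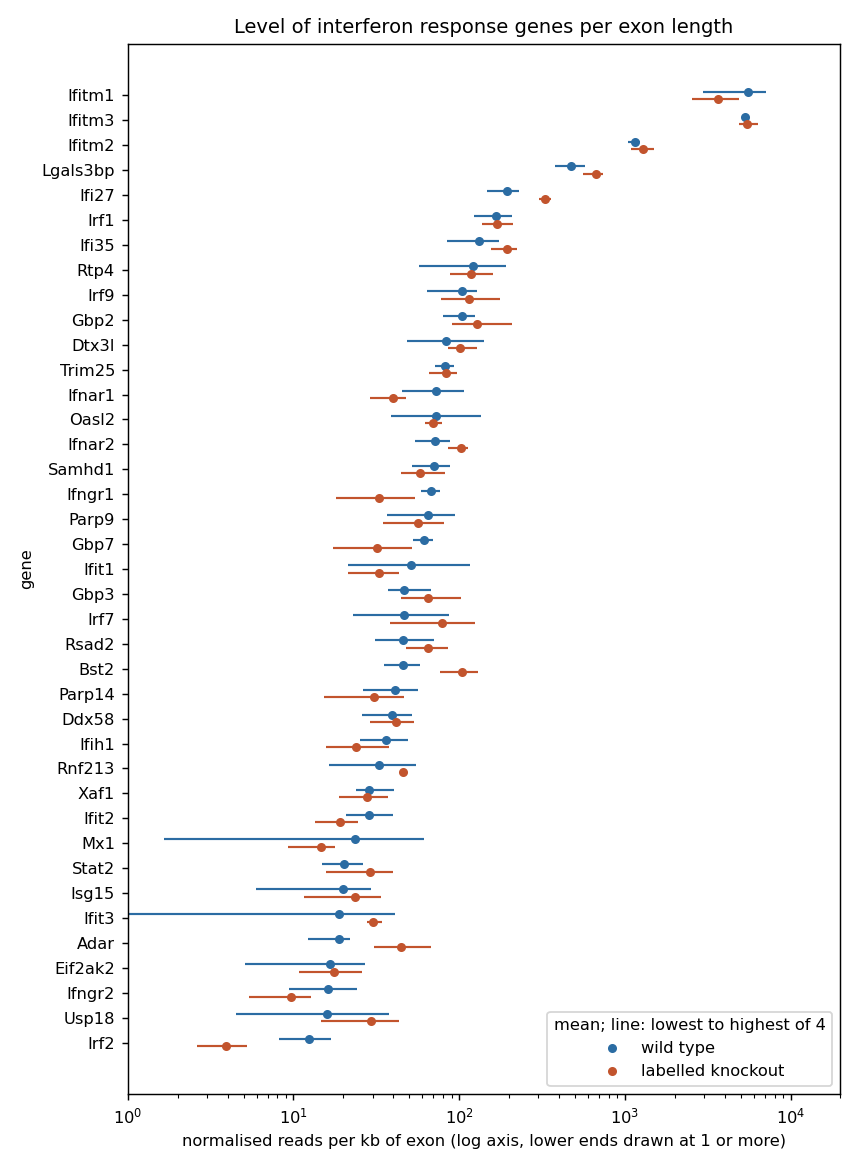
Normalised reads per kb of exon for the 39 interferon response genes on a log axis, ordered by the wild type mean; points are means of 4 libraries and lines run from the lowest to the highest library. Ifitm1, Ifitm3 and Ifitm2 lie above the rest in both groups, and Irf2 has the lowest wild type mean.

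Between the groups, 1 of the 39 genes passed the test, Adar, which rose in libraries labelled knockout, and the other 38 did not pass. That is 2.56% of the list, where 3.80% of all 10989 tested genes passed, 1.68% higher and 2.12% lower (limma on log2 of the value plus 1, Benjamini-Hochberg adjusted p under 0.05). An unadjusted p under 0.05 was found for 10 of the 39 (25.6%; all tested genes 19.7%), 5 higher (all tested genes 9.91%) and 5 lower (9.75%) in libraries labelled knockout. The ranges of both groups were separate for 6 of the 39 (15.4%; all tested genes 11.7%), 3 higher (all tested genes 5.78%) and 3 lower (5.91%). The median log2 difference over the list was 0.12, beside 0.025 over all tested genes, and 26 of the 39 lay above 0 (66.7%, beside 51.3% of all tested genes). Between libraries of a group, the median deviation of the list had an SD of 0.134, as large as this difference. The median was 0.072 in edgeR and 0.075 in DESeq2 (all tested genes -0.021 and -0.018). The count past the adjusted threshold was 1 in edgeR (all tested genes 3.10%), 2 in limma-voom (Adar and Ifi27; 5.92%) and 3 in DESeq2 (Adar, Ifi27 and Irf2; 7.05%). It was 6 in limma without wild type library 2 (Adar, Ifi27, Ifitm1, Ifnar1, Lgals3bp and Rnf213; 8.02%) and 0 without any other single library, fits in which 0.446% to 2.16% of all tested genes passed. Log2 differences ran from -1.61 (Irf2) to 1.73 (Ifit3).

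**Figure D2:**
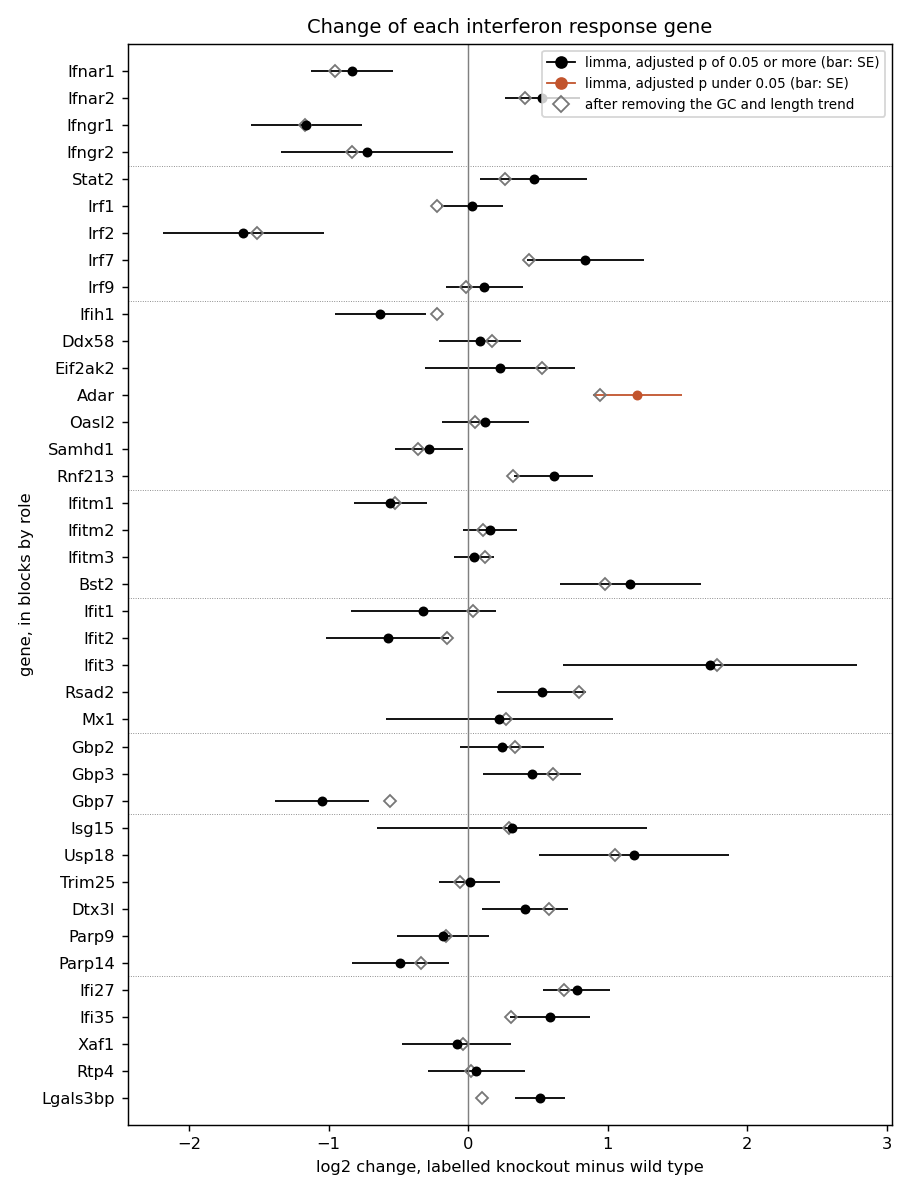
Log2 change of each of the 39 genes, libraries labelled knockout minus wild type, with limma's standard error as bars and, as open diamonds, the change after removing each library's trend in GC content and transcript length. Adar, in orange, is the gene past the threshold, and each of the 8 blocks of genes by role has changes on both sides of 0.

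Of the receptors, none of the 4 passed the test, with 3 values below 0 and that of Ifnar2 above 0. Ifngr1, the ligand-binding chain of the type II receptor (chromosome 10 from 19591949 to 19610229 on the plus strand), had 217, 200, 187 and 167 in wild type and 62.7, 51.1, 154 and 107 in libraries labelled knockout. All 4 values labelled knockout were thus below all 4 of wild type, with means of 93.7 ± 46.8 and 193 ± 21.2 (SD, n = 4) and a log2 difference of -1.16 ± 0.40 (SE; limma adjusted p = 0.115; exact permutation p = 0.0286, the smallest that 70 assignments allow). Any gene whose groups do not overlap has this permutation p, which is unadjusted and so adds nothing to the separation of the values. Groups did not overlap for 11.7% of all tested genes. Ifngr2, the signalling chain of the type II receptor, was low, with 35.5, 91.6, 53.8 and 62.0 in wild type and 48.1, 31.2, 45.1 and 20.4 in libraries labelled knockout, and the groups overlapped (limma adjusted p = 0.543). Ifnar1, a chain of the type I receptor that carries the kinase Tyk2, was 638, 270.0, 444 and 382 in wild type and 276, 213, 172 and 284 in libraries labelled knockout. The groups overlapped only through wild type library 2. The log2 difference of Ifnar1 was -0.83 ± 0.30 (SE; limma adjusted p = 0.126), and it passed without wild type library 2 (-1.04, limma adjusted p = 0.028). Ifnar2, the chain that binds interferon most tightly, had 292, 213, 265 and 179.9 in wild type and 339.8, 354, 376 and 287 in libraries labelled knockout, with a log2 difference of 0.53 ± 0.27 (SE; limma adjusted p = 0.282). Ifnar2, Ifnar1 and Ifngr2 are neighbours on chromosome 16, from 91372783 to 91565623.

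Of the 5 transcription factors, Irf2 had the largest difference of the whole list below 0. Irf2 binds the same element as Irf1 and is known mostly as a repressor of interferon-induced genes that guards HSCs from chronic type I signalling (chromosome 8 from 46739732 to 46847458 on the plus strand). It had 124, 60.1, 114 and 68.0 in wild type and 23.3, 33.7, 19.4 and 38.9 in libraries labelled knockout. No value labelled knockout reached the lowest of wild type, and the means were 91.4 ± 32 and 28.8 ± 9.0 (SD, n = 4). Its log2 difference was -1.61 ± 0.58 (SE), short of the threshold in limma (adjusted p = 0.127; exact permutation p = 0.0286) and past it in DESeq2 (adjusted p = 0.0337). Irf1, an activator, was 824, 646, 489 and 707 in wild type and 699, 835, 623 and 545 in libraries labelled knockout, with means of 666 ± 139.5 and 676 ± 124 (limma adjusted p = 0.962). Irf9, the DNA-binding part of the type I complex, was 688, 632, 590.3 and 344 in wild type and 486, 416, 952 and 629.6 in libraries labelled knockout, and the groups overlapped (limma adjusted p = 0.856). Stat2, its partner, had means of 119 ± 28.5 in wild type and 171 ± 59.3 in libraries labelled knockout (limma adjusted p = 0.526). Irf7, the amplifier of type I interferon production that is itself induced by interferon, was 86.3, 330.1, 176 and 107 in wild type and 305, 267, 468 and 145 in libraries labelled knockout. Wild type library 2 lay inside the range of the latter and the other 3 wild type libraries at 176 or below. The log2 difference of Irf7 was 0.84 ± 0.42 (SE; limma adjusted p = 0.278).

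Among RNA sensors and effector enzymes, Adar rose. The gene encodes the deaminase that turns adenosine into inosine in duplex RNA and so keeps a cell's own RNA from setting off the sensor encoded by Ifih1. It maps to chromosome 3 from 89715022 to 89753446 on the plus strand. Of its exons, 1365 bases overlap those of Chrnb2 on the other strand, where reads cannot be assigned since the kit does not mark strand. Adar had 162, 171, 178 and 99.0 in wild type and 314, 248, 546 and 337 in libraries labelled knockout, so that each of the latter lay above each wild type library. The mean went from 153 ± 36.4 to 361 ± 129 (SD, n = 4), a 2.32-fold rise (log2 1.21 ± 0.32, SE; limma adjusted p = 0.0422; exact permutation p = 0.0286). The call is close to the threshold: it held without wild type library 2 (limma adjusted p = 0.0208) and was missed without any 1 of the other 7 libraries (0.064 to 0.145) and with the GC and length trend removed (log2 0.95, adjusted p = 0.221). Adar has a GC content of 53.4%.

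None of the other 6 genes of this role passed. Ifih1 (MDA5), the sensor of long duplex RNA, was 304, 399, 206 and 272 in wild type and 309, 173, 129 and 169 in libraries labelled knockout (log2 difference -0.63 ± 0.33, SE; limma adjusted p = 0.292). Ddx58 (RIG-I), the sensor of RNA ends, had means of 278 ± 75.3 and 292 ± 71.3, and Eif2ak2 (PKR), the kinase that halts translation on duplex RNA, 84.9 ± 46.1 and 89.8 ± 33.4 (limma adjusted p = 0.908 and 0.854). Samhd1, which breaks down deoxynucleotides, was 807, 473, 575 and 720.3 in wild type and 490.0, 751, 482 and 409 in libraries labelled knockout, with overlapping groups (limma adjusted p = 0.552). Rnf213, a very large ubiquitin ligase, was 279, 927, 598 and 428 in wild type and 819.6, 774, 747 and 762 in libraries labelled knockout. Its 4 values labelled knockout had a coefficient of variation of 4.01%, against 50% in wild type, where library 2 was the highest of all 8. The log2 difference of 0.61 ± 0.28 (SE; limma adjusted p = 0.238) passed without wild type library 2 (0.90, limma adjusted p = 0.0258). Oasl2, a relative of the oligoadenylate synthetases, was 249, 858, 438 and 294 in wild type and 502, 453, 432 and 394 in libraries labelled knockout, again with wild type library 2 highest (limma adjusted p = 0.865).

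**Figure D3:**
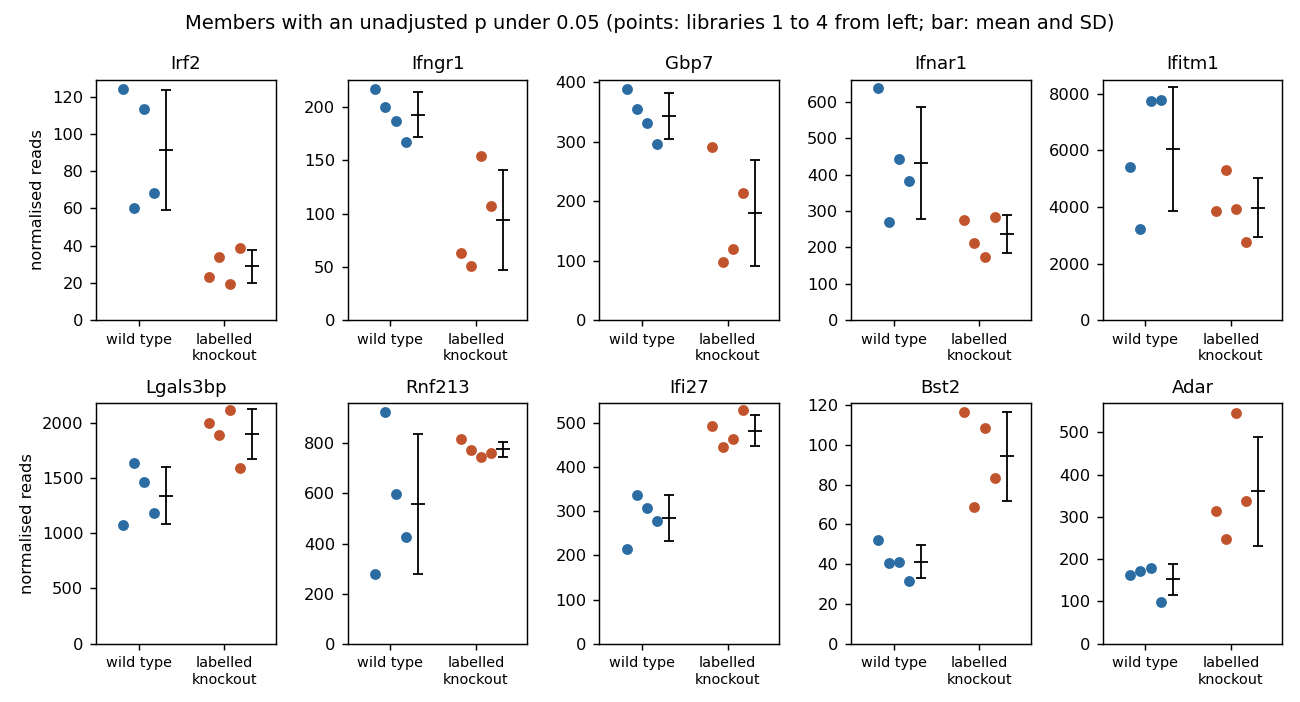
Normalised reads (axes from 0) of the 10 genes with an unadjusted limma p under 0.05, ordered by log2 change; points are libraries 1 to 4 from left to right and bars the mean with SD of 4. Irf2, Ifngr1 and Gbp7 lie lower in all 4 libraries labelled knockout than in any wild type library, and Ifi27, Bst2 and Adar higher.

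The abundant IFITM proteins and Bst2 did not pass the test. Ifitm3 was the steadiest gene of the list in wild type (coefficient of variation 3.49%), with 3499, 3777, 3560.4 and 3534 in wild type and 3465, 4320.5, 3751 and 3307 in libraries labelled knockout (log2 difference 0.04 ± 0.14, SE; limma adjusted p = 0.909). Ifitm2 was 741, 815, 764 and 687 in wild type and 722, 934, 984 and 738 in libraries labelled knockout (limma adjusted p = 0.693). Ifitm1 varied most of the 3, with 5431, 3221, 7758 and 7778 in wild type and 3849.9, 5322, 3939 and 2771 in libraries labelled knockout. Wild type libraries 3 and 4, those with the high B cell markers, Cd48, Flt3 and Prtn3, were the highest for Ifitm1. Wild type library 2 was the second lowest of all 8. Without wild type library 3 or 4 the log2 difference was -0.41 in each fit; the part of these markers in it was not tested. The log2 difference over all 8 libraries, -0.56 ± 0.26 (SE; limma adjusted p = 0.254), passed without wild type library 2 (-0.83, limma adjusted p = 0.0102). The 3 genes are close relatives in 1 cluster on chromosome 7, 14.3 to 14.4 Mb from Nupr1, and reads could be shared between near-identical stretches. Irf7 lies on the same chromosome at 14.6 Mb. Bst2 (tetherin), which holds budding virus particles on the cell surface, was low, with 52.2, 40.4, 40.9 and 31.7 in wild type and 117, 68.6, 109 and 83.3 in libraries labelled knockout. All 4 of the latter exceeded all 4 of wild type, with means of 94.3 ± 22.3 and 41.3 ± 8.40 (SD, n = 4), a log2 difference of 1.16 ± 0.50 (SE; limma adjusted p = 0.209; exact permutation p = 0.0286).

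None of the 5 IFIT, viperin and Mx effectors passed, and wild type libraries differed most in Mx1. Ifit1, which binds viral RNA caps, was 56.4, 310.4, 65.8 and 108 in wild type and 77.3, 115, 102 and 56.5 in libraries labelled knockout. Its relative Ifit2 was 81.5, 158, 116 and 93.7 in wild type and 90.4, 59.9, 53.0 and 96.3 in libraries labelled knockout. For Mx1, an interferon-induced gene of the GTPase class, wild type libraries ran over 6.27, 233, 34.9 and 80.1, a coefficient of variation of 114%. Libraries labelled knockout ran over 35.0, 67.3, 61.8 and 58.3, a coefficient of 25.6%. Wild type library 2 was thus the highest of the 8 for Ifit1, Ifit2 and Mx1. For Ifit3 the same library was listed at 0, with 23.0, 37.9 and 71.0 in the other wild type libraries and 59.8, 49.9, 53.0 and 48.1 in libraries labelled knockout. Its fitted log2 difference of 1.73 ± 1.06 (SE; limma adjusted p = 0.38) became 0.40 without wild type library 2. Rsad2 (viperin), which makes a chain-terminating nucleotide, was 179, 176, 136 and 307 in wild type and 209, 373, 254 and 287 in libraries labelled knockout (limma adjusted p = 0.377).

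Wild type library 2 carried the highest of the 4 wild type values in 16 of the 39 genes, where it was the highest for 30.3% of all tested genes. It carried the lowest in 7 of the 39, where it was the lowest for 33.0% of all tested genes. It reached at least 2 times the mean of the other 3 in 6 of the 39 (15.4%; all tested genes 11.3%), namely Irf7 (2.68 times), Oasl2 (2.63), Rnf213 (2.13), Ifit1 (4.04), Mx1 (5.75) and Usp18 (4.30). Over all genes, too, this library was the one at a distance on the leading principal component (25.6% of the variance). Wild type library 1 was the highest of its group in 15 of the 39 (24.2% of all tested genes) and had the lowest wild type value for Mx1, Usp18, Irf7, Oasl2, Rnf213 and Ifit1. Those 6 genes were picked for a high wild type library 2, so its place at the top of their group is not a result. The libraries labelled knockout lay between wild type libraries 1 and 2, except library 3 for Irf7 and library 4 for Usp18, which lay higher. The pick also favours values labelled knockout below wild type library 2.

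**Figure D4:**
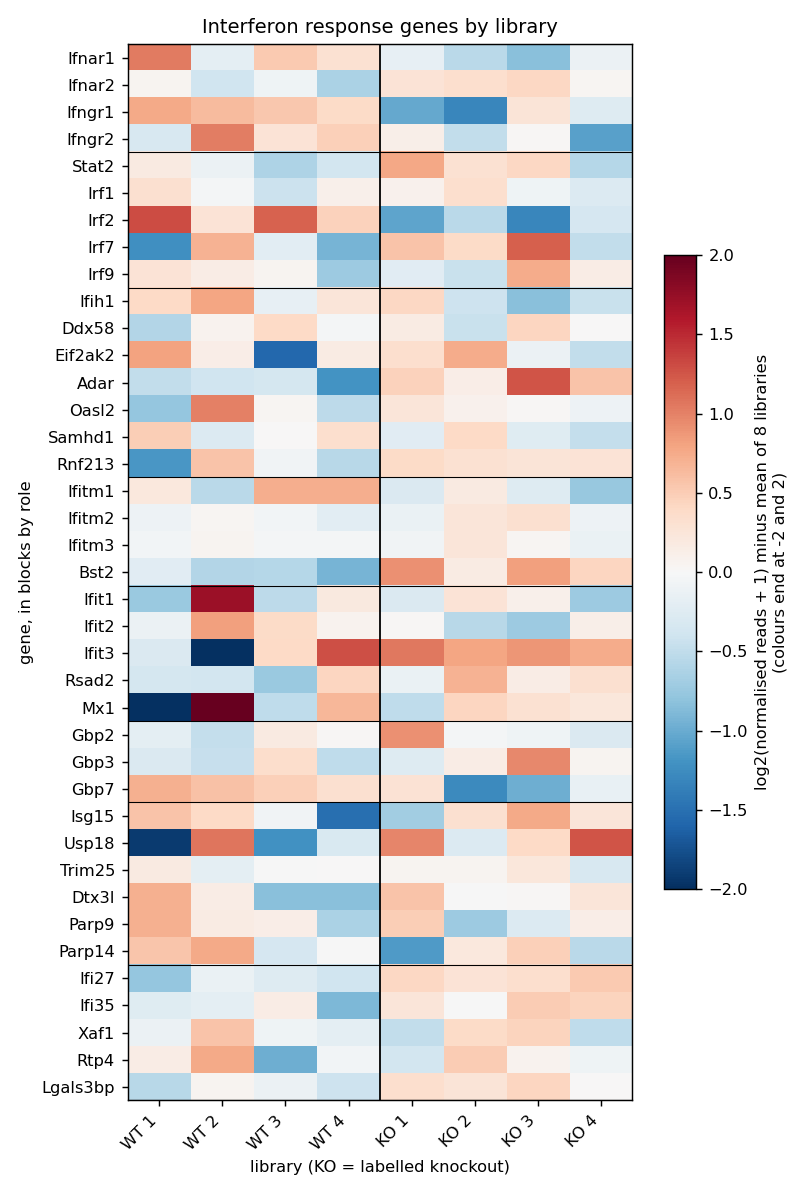
Deviation of log2(normalised reads + 1) from the mean of the 8 libraries for each of the 39 genes, in blocks by role; red is above and blue below the mean, and colours end at -2 and 2. Wild type library 2 is red for Ifit1, Mx1, Oasl2 and Usp18 and dark blue for Ifit3, and the libraries labelled knockout are blue for Irf2 and red for Adar, Bst2 and Ifi27.

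Of the 3 guanylate-binding proteins, GTPases that coat the vacuoles of intracellular pathogens, none passed. Gbp7 (chromosome 3 from 142530342 to 142550149 on the plus strand) had 389, 355, 331 and 296 in wild type and 290.2, 97.3, 120.2 and 214 in libraries labelled knockout. The groups did not overlap, by a gap from 290.2 to 296 only, and the means were 343 ± 39.2 and 180.4 ± 88.9 (SD, n = 4; log2 difference -1.05 ± 0.34, SE; limma adjusted p = 0.0919). Gbp7 has the lowest GC content of the list (41.7%), and with the GC and length trend removed its log2 difference was -0.56. Its neighbours on chromosome 3 lay on the other side of 0. Gbp2 was 245, 200, 315 and 283 in wild type and 525, 271, 263 and 228 in libraries labelled knockout, with library 1 labelled knockout far above the others (limma adjusted p = 0.701). Gbp3 was 140.0, 124, 220.3 and 121 in wild type and 144, 191, 335 and 179 in libraries labelled knockout (limma adjusted p = 0.504). Members of this family are alike in sequence, so reads can be shared between them.

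None of the 6 genes of ISG15 conjugation, ubiquitin and ADP-ribosylation passed. Isg15, the modifier, had 22.3, 19.7, 14.0 and 4.53 in wild type and 8.75, 18.7, 25.6 and 17.6 in libraries labelled knockout, and no difference was detectable at this depth (limma adjusted p = 0.892). Usp18, which removes ISG15 and blocks the type I receptor, was 12.5, 105, 20.9 and 40.1 in wild type and 99.2, 41.1, 66.3 and 121 in libraries labelled knockout, with a log2 difference of 1.19 ± 0.68 (SE; limma adjusted p = 0.349) and 1.74 without wild type library 2 (limma adjusted p = 0.108). Trim25, a ubiquitin ligase that assists RIG-I, was 535, 413, 473 and 477 in wild type and 491, 494, 556 and 379.6 in libraries labelled knockout (limma adjusted p = 0.985). Dtx3l and Parp9 form a complex and share 458 bases of exon on opposite strands. Dtx3l was 806, 551, 275 and 278 in wild type and 732, 490.0, 504 and 582 in libraries labelled knockout (limma adjusted p = 0.491). Parp9 was 462, 313, 308 and 179.9 in wild type and 395, 169.6, 232 and 309 in libraries labelled knockout (limma adjusted p = 0.805). Both were highest in library 1 of each group. Parp14, another ADP-ribosyltransferase, had means of 384 ± 129.8 and 287 ± 133 (limma adjusted p = 0.463).

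Of the 5 other induced genes none passed, while 4 lay above 0. Ifi27 (chromosome 12 from 103434211 to 103440239 on the plus strand) was 215, 337, 307 and 279 in wild type and 493, 446, 464 and 529 in libraries labelled knockout. Every library labelled knockout exceeded every wild type library, with means of 483 ± 36.0 and 285 ± 52 (SD, n = 4). The log2 difference, 0.78 ± 0.24 (SE; limma adjusted p = 0.0794; exact permutation p = 0.0286), passed in DESeq2 (adjusted p = 0.0247), in limma-voom (0.0436) and in limma without wild type library 2 (0.0341). Lgals3bp was 1074, 1639, 1463 and 1184 in wild type and 1993, 1887, 2118 and 1593 in libraries labelled knockout, overlapping through wild type library 2 and library 4 labelled knockout (log2 difference 0.51 ± 0.18, SE; limma adjusted p = 0.121). With the GC and length trend removed, its log2 difference was 0.10. Ifi35, an interferon-induced leucine zipper protein, had means of 228 ± 63.4 and 336 ± 52.4 (limma adjusted p = 0.267). Xaf1, which opposes the inhibitor of apoptosis XIAP, was 117, 190.2, 119.6 and 111 in wild type and 90.4, 167, 174 and 88.9 in libraries labelled knockout, and Rtp4, a chaperone of receptors, had means of 258 ± 118 and 252 ± 66.2 (limma adjusted p = 0.932 and 0.949). Adar, Bst2 and Ifi27 were higher in the libraries that also had the higher megakaryocyte and platelet markers and the higher Klf1; the part of those markers in the differences was not tested.

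Within the list, genes of higher GC content tended to have log2 differences further above 0. The rank correlation across the 39 genes between GC content and log2 difference was 0.493, beside 0.449 across 10898 tested genes with a GC value; genes are not independent replicates. The 5 genes above 0 with an unadjusted p under 0.05 had a GC content of 50.9% to 55.8% and the 5 below 0 of 41.7% to 50.7%. With the trend removed from each library, 0 of the 39 passed (smallest limma adjusted p 0.156, Ifnar1; 0.294% of all tested genes passed) and 7 had an unadjusted p under 0.05 (12.7% of all tested genes). The differences of Ifngr1 (-1.16 before and -1.17 after), Ifnar1 (-0.83 and -0.95), Irf2 (-1.61 and -1.51), Ifi27 (0.78 and 0.68) and Bst2 (1.16 and 0.98) kept most of their size. Those of Lgals3bp, Gbp7 and Rnf213 (0.61 and 0.32) lost a large part of it.

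**Figure D5:**
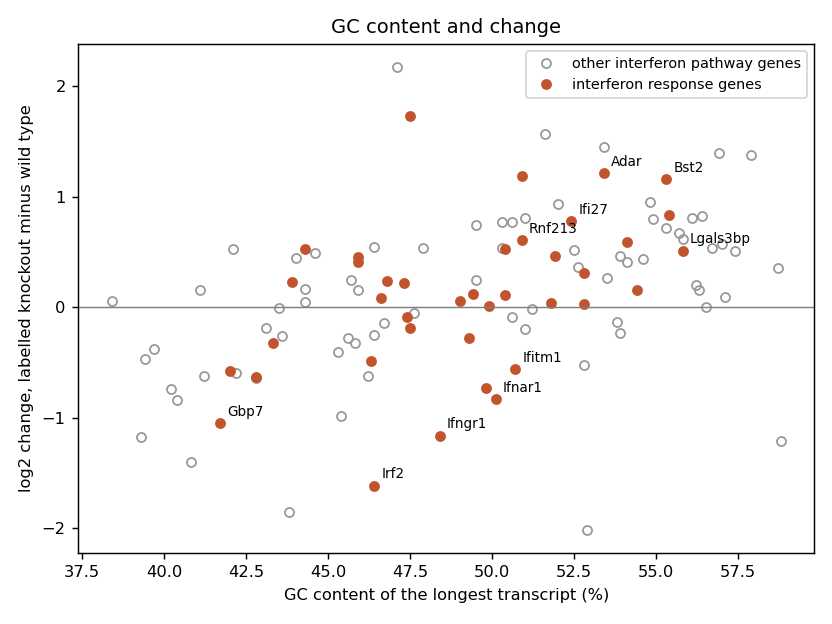
Log2 change, libraries labelled knockout minus wild type, against the GC content (%) of the longest transcript, for the 39 interferon response genes (filled) and 73 other genes of the pathway (open); the 10 genes with an unadjusted limma p under 0.05 are named. All 9 filled points with a GC content above 52% lie above 0, and Gbp7 and Irf2 lie below 0 at 41.7% and 46.4%.

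Other genes of the pathway, from a separate list of 85 of which 73 were tested, gave 4 calls, 2 higher and 2 lower (5.48%, beside 3.80% of all tested genes). An unadjusted p under 0.05 was found for 20 of the 73 (27.4%; all tested genes 19.7%), and 43 of the 73 lay above 0 (58.9%; all tested genes 51.3%), with a median log2 difference of 0.17. Trim30a, a TRIM protein that dampens NF-κB signalling, fell from 1008, 757, 482 and 792 normalised reads in wild type to 287, 279, 243 and 303 in libraries labelled knockout (log2 -1.40 ± 0.25, SE; limma adjusted p = 0.00812) and passed with any 1 of the 8 libraries left out. Trim30a lies on the chromosome of Nupr1, chromosome 7, from 104409025 to 104465193, and Nupr1 from 126623249 to 126630861. B2m, the light chain of MHC class I, fell from a mean of 15659 ± 1419 to 10172 ± 770.2 (SD, n = 4; log2 -0.62 ± 0.12, SE; limma adjusted p = 0.0145). Trim30a and B2m have GC contents of 40.8% and 41.2%, and with the trend removed their log2 differences were -0.89 and 0.06 (limma adjusted p = 0.143 and 0.885). B2m thus turned to the other side of 0. Uba7, the enzyme that activates ISG15, rose from 737, 1166, 604 and 577 to 1665, 1638, 1521 and 1025 (log2 0.96 ± 0.23, SE; limma adjusted p = 0.0319), with wild type library 2 above library 4 labelled knockout. Oas1g, an oligoadenylate synthetase that makes the activator of RNase L, rose from 46.0, 104, 57.8 and 43.8 to 214, 244, 129.9 and 145 (log2 1.57 ± 0.43, SE; limma adjusted p = 0.0492).

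Of these 4 calls, 3 were lost when some single libraries were left out. B2m missed the threshold without wild type library 3 (limma adjusted p = 0.0504) and without library 1 (0.06) or 2 (0.062) labelled knockout. Uba7 missed it without any 1 of the libraries except wild type library 2 and library 4 labelled knockout (0.0688 to 0.11), and Oas1g in all such fits except that without wild type library 2 (0.0776 to 0.159). With the trend removed, Uba7 and Oas1g had log2 differences of 0.58 and 1.39 (limma adjusted p = 0.324 and 0.176). Oas1g and its neighbour Oas1a are near copies, and reads can be shared between them.

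The next 4 by p did not pass. Parp10, an ADP-ribosyltransferase, was 91.9, 120.2, 59.8 and 83.9 in wild type and 360.2, 226, 235 and 137 in libraries labelled knockout, without overlap (limma adjusted p = 0.0512). Ptpn6 (SHP-1), a phosphatase that ends cytokine signals, was 608, 791, 599 and 1123 in wild type and 1423, 1227, 1674 and 1019 in libraries labelled knockout (limma adjusted p = 0.0525). Oas1a was 254, 279, 294 and 123 in wild type and 401, 440.2, 461 and 425 in libraries labelled knockout, also without overlap (limma adjusted p = 0.0828). Groups did not overlap for 11 of the 73 other pathway genes (15.1%, all tested genes 11.7%), Trim30a, B2m and Oas1g among them. Iigp1, a GTPase of the IRG family induced by type II interferon, was 519, 510.4, 161 and 312 in wild type and 219, 156, 109 and 137 in libraries labelled knockout (limma adjusted p = 0.0864). The kinases of the signalling path did not pass either. Jak1, used by both receptors, was 963, 1204, 1513 and 1235 in wild type and 1063, 1242, 1781 and 801 in libraries labelled knockout (limma adjusted p = 0.929). Tyk2, the kinase bound to Ifnar1, was 85.6, 58.1, 74.8 and 170.1 in wild type and 140.0, 116, 176 and 110.2 in libraries labelled knockout (limma adjusted p = 0.481). Exons of Tyk2 share 554 bases with another gene, where reads cannot be assigned.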

How the data were processed

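HSCs were sorted from bone marrow, and polyadenylated RNA was converted to cDNA and Nextera XT libraries, per the labels' protocols; the kit keeps no strand. The submitters' processing notes list bcl2fastq, HISAT2, featureCounts, Subread, DESeq2 and build mm10, with neither version nor setting. The deposited values are called raw counts but are a normalised signal: in each library, every value (100%) was a whole multiple of 1 step within 0.001, as read counts over a size factor are. Dividing by the step returned the reads. For wild type library 3 the step was 0.997, so this return depends on its low values, of which 0 of 1512 were whole numbers. Of 11855 entries, 1 had no name and was dropped (at most 0.00109% of a library).

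Groups were compared on log2(value + 1) of the 10989 genes that reached 10 in 4 or more libraries (865 did not), in limma 3.58.1 with trend and robust options (R 4.3.3), two-sided, 4 against 4, adjusted by Benjamini-Hochberg. Exact permutation tests ran over all 70 assignments (smallest p 0.0286, which every gene with separate groups has). Nothing given says whether libraries came from separate mice, litters or days. GENCODE M21 (mm10) gave positions, exon length and GC content for 11725 of 11853 symbols. The trend in GC content and length was taken out of each library with natural splines of 5 degrees of freedom. Alternatives were edgeR 4.0.16, DESeq2 1.42.0 and limma-voom on the returned reads, 5 added in place of 1, other filters, a replicate block, the trend removal and each library left out. Members and lists were chosen with earlier results of these data known. By the rule for named genes, library values are printed for members with an unadjusted p under 0.05, separate groups or 1 outlying library and for the 2 of highest mean in each role. From the other list come the called genes, the next 4 by p, Jak1 and Tyk2; 1 further gene of the rule is not reported here. Library values of further members, such as Irf7, Ifih1, Mx1 and Usp18, were added after they were seen. Promoters are from RefSeq.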

Additional observations from a re-analysis of the deposited data

Results flagged for a closer look

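For 2 genes, 1 library lay further from the other 3 of its group than the 95% limit of Dixon's test allows, among 100 groups of 4 examined, where chance gives about 1 in 20. Xaf1 was 190.2 normalised reads in wild type library 2 and 111.1 to 119.6 in the other wild type libraries. Gbp2 was 525 in library 1 labelled knockout and 227.8 to 270.6 in the others of that group.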

How the results depend on the processing

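The count of interferon response genes past the threshold, 1 in limma, was 3 in DESeq2, 2 in limma-voom, 0 with the GC and length trend removed and 2 with the trend removed and wild type library 2 left out (Ifitm1 and Ifnar1; 2.20% of all tested genes). It was 0 in edgeR without wild type library 3 (a fit chosen after seeing the data) and 0 to 6 with each library left out in turn, the 6 without wild type library 2. Groups did not overlap for 6 to 11 of the 39 (15.4% to 28.2%) with a library left out, where 14.6% to 20.4% of all tested genes did not overlap; the 11 are those without wild type library 2 (all tested genes 20.4%). The median log2 difference was 0.27 with the trend removed and wild type library 2 left out, against 0.12. The count of other pathway genes, 4 in limma, was 10 in DESeq2 (all tested genes 7.05%), 8 in limma-voom (5.92%), 0 with the trend removed (0.294%), 2 in edgeR without wild type library 3 (0.755%), and 1 to 9 with each library left out (0.446% to 8.02%). With the trend removed, B2m had a log2 difference of 0.061 in place of -0.62, also with the replicate block (0.061), and 0.12 with wild type library 2 left out as well. The cause of these changes was not tested.

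The replicate numbers showed no sign of pairing. Deviations of same-numbered libraries from their group means correlated at -0.057 to 0.015 across genes, and those of different numbers at -0.046 to 0.073. With 4 same-numbered pairs, this check cannot exclude pairing. With the replicate number as a block, 0 of the 39 genes passed (Adar, limma adjusted p = 0.0557), also 0 with the trend removed, where 0 other pathway genes passed; 277 of all genes passed against 418 without the block. Libraries of 2296101 to 4769401 reads limit what can be seen for genes near 20 reads, such as Isg15.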
